A study of Mus musculus with 8 samples.

Results

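Nr5a2 is an orphan nuclear receptor, and its own gene together with 7 other nuclear receptor genes, Nr5a1, Nr6a1, Nr2f1, Nr2f2, Esrra, Rarg and Rara, was examined for binding of reprogramming factors. The 8 genes were taken by name from the mm10 annotation, out of 21911 protein-coding genes on the placed chromosomes. A peak was assigned to a gene when its summit, the position of highest signal, lay in the gene body or no more than 100 kb from the first start site. By this rule 638 of 661009 peaks in 8 libraries belonged to the 8 loci. Nr5a1 and Nr6a1 are neighbours whose windows overlap over 91.2 kb, and 34 summits there were given for both genes but entered the sums over loci once. A further 7 summits on coding exons of Nr5a2 were set apart, because the delivered vectors carry this coding sequence.

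Each of the 8 libraries was made at day 3 of reprogramming from MEFs, fibroblasts of mouse embryos, by CUT&Tag, in which an antibody directs the transposase Tn5 to cut and tag the DNA near its target. The antibody was against Flag, a short tag on the factor that the vector delivered. The libraries were Nr5a2, Oct4, Sox2 and Nanog in the native form, and Nr5a2BiD, Oct4BiD, Sox2BiD and NanogBiD, in which the same factor carries BiD, a stretch of SS18 that contacts the BAF subunit BRG1. Each group was 1 library, and the labels give neither the other factors in the same cells nor a separate culture for each. The factors came from retroviral vectors, so the tagged protein is not the endogenous one, and the MEFs carried an Oct4-GFP reporter per the study's methods.

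Nuclear receptors are transcription factors that bind short sequences built around AGGTCA. Nr5a2 (also called LRH-1) and its closest relative Nr5a1 (SF-1, a regulator of steroidogenic tissues) bind as monomers to an AGGTCA-like sequence with added bases on its 5′ side. In early embryos and embryonic stem cells Nr5a2 is known to act on Oct4, and Nr6a1 (GCNF) represses Oct4 as cells differentiate. Esrra (ERRα) controls genes of mitochondrial energy metabolism, Rara and Rarg are receptors for retinoic acid, and Nr2f1 and Nr2f2 (the COUP-TFs) act in mesenchyme and nervous system development.

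The lists held from 54794 peaks in native Oct4 to 120594 in Sox2BiD, and counts are therefore also given per 10000 peaks of the library. Median summit heights were 16 to 22 tags over the libraries, and heights are not scaled to sequencing depth. With no control library named, a peak in open chromatin cannot be told apart from a bound site. Of 8 fibroblast marker genes (Col1a1, Col1a2, Col3a1, Thy1, Twist1, Prrx1, Pdgfra and Vim), 8 had a promoter peak in 6 libraries, 7 in NanogBiD and 5 in native Sox2. None of 6 pluripotency genes (Pou5f1, Nanog, Zfp42, Dppa5a, Esrrb and Dppa4) had one in any library. A promoter peak is a summit within 2 kb of an annotated start site and is not a measure of expression.

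Each factor had sites at these loci that both its forms shared and the other factors lacked. Joining overlapping peaks of the 8 libraries gave 271 regions, of which 26 had a peak in native Nr5a2 and Nr5a2BiD and in no other library. These were 9.59% of the regions, close to the 10.1% found over 306388 regions of all placed chromosomes. The same count was 9 for the Oct4 pair, 8 for the Sox2 pair and 8 for the Nanog pair, where 5.03%, 6.62% and 3.78% of all regions were of that kind. The consensus of the NR5A subfamily lay within 50 bp of 11 native Nr5a2 summits, of which 4 were in a peak that overlapped an Nr5a2BiD peak. Among all native Nr5a2 summits at the loci, 70 of 128 (54.7%) were in such a peak, and over all peaks of the library 60.7%. This consensus was searched on both strands as TCAAGGTCA, TCAAGGCCA, CCAAGGTCA and CCAAGGCCA. The 101 bases centred on each of the 4 summits (GRCm38) are shown, and capitals mark the match. They hold the receptor's known sequence near the native summit of a site found with both forms. They lie at chr1:137034704-137034804 (minus strand), 74.3 kb upstream of Nr5a2, at chr2:38705128-38705228 (plus strand) in an intron of Nr5a1, at chr2:38869495-38869595 (plus strand) in an intron of Nr6a1, and at chr15:102303452-102303552 (minus strand), 46.0 kb upstream of Rarg.
Nr5a2 upstream site: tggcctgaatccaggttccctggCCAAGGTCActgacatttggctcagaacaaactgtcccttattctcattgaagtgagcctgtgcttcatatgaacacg
Nr5a1 intron site: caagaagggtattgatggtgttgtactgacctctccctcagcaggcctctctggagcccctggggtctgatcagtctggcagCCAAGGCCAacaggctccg
Nr6a1 intron site: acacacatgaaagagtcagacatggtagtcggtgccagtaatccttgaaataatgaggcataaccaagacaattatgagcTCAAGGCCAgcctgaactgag
Rarg upstream site: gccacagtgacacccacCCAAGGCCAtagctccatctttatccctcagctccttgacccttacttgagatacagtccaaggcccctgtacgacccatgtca

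The match stood 23 bp from the native summit at Nr5a2, 36 bp at Nr5a1, 34 bp at Nr6a1 and 29 bp at Rarg. From the Nr5a2BiD summit the nearest match in the region was 20, 27, 80 and 55 bp away, in the same order. The Rarg region held 2 matches. The native summits had 16, 37, 26 and 24 tags and the highest Nr5a2BiD summits of the overlapping peak 25, 20, 16 and 21 tags, in the same order. No peak of the other 6 libraries overlapped any of these peaks. The native and Nr5a2BiD summits were 3 bp apart at Nr5a2, 63 bp at Nr5a1 and 46 bp at Nr6a1, but 683 bp apart at Rarg.

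At the Nr5a2 locus itself (ENSMUSG00000026398.14, minus strand, chr1:136842571-136960448), the 2 Nr5a2 libraries had the most summits. With coding exons set apart, native Nr5a2 had 9 summits and Nr5a2BiD 8. The Oct4 libraries had 1 (native) and 4 (BiD), the Sox2 libraries 3 and 2, and the Nanog libraries 2 and 4. Per 10000 peaks these were 0.833 and 1.05 in the Nr5a2 libraries and 0.166 to 0.528 in the other 6, so the ranges did not overlap. The same separation was found at 31.7% of all protein-coding genes, so it is not particular to this gene. In every library a minority of coding genes had fewer summits per 100 kb of window. The share was 30.5% in native Nr5a2, 40.3% in Nr5a2BiD and 10.8% to 32.2% in the others. Coding-exon summits were left out for this gene alone, which lowers its density in its own libraries. The window of 218 kb holds the start of no other protein-coding gene.

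**Figure D1:**
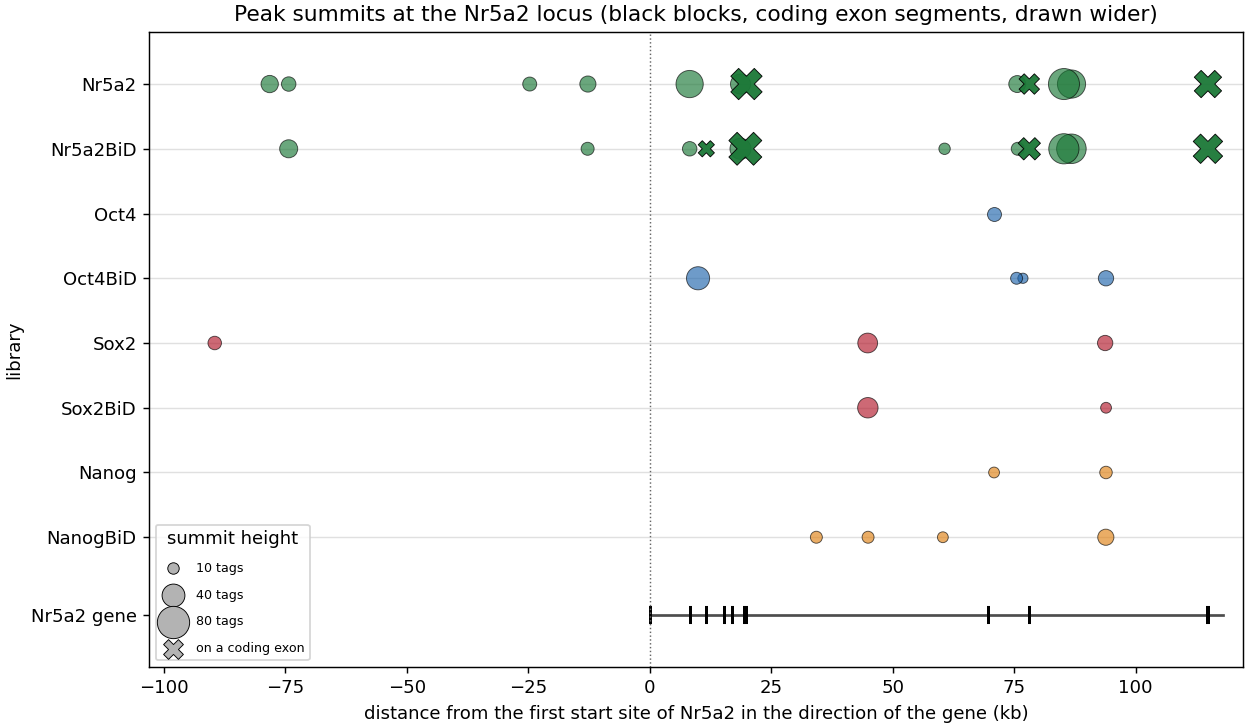
Peak summits at the Nr5a2 locus in the 8 libraries, by distance in kb from the first start site in the direction of the gene; circle area is proportional to summit height in tags, and crosses mark summits on coding exons. The crosses are in the 2 Nr5a2 libraries, 3 in native Nr5a2 and 4 in Nr5a2BiD, and the tallest intronic circles, of 61 to 74 tags, stand at 85 to 87 kb in the same libraries.

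The tallest summits outside coding sequence were a pair in the same long intron. The peak at chr1:136873064-136874193 had 61 tags in native Nr5a2 and 67 in Nr5a2BiD, and the one at chr1:136874265-136876036 had 74 and 70 tags. The summits of the 2 forms were 22 bp apart at the first of these and 21 bp at the second, and no other library had a peak at either. They lay 7036 to 8609 bp from the nearest coding exon of the gene. The NR5A consensus was absent from the first region and 761 bp from the native summit in the second, which is why the sequences under both summits are printed here without capitals (201 bases each, plus strand, chr1:136873555-136873755 and chr1:136875107-136875307).
Nr5a2 intron site A: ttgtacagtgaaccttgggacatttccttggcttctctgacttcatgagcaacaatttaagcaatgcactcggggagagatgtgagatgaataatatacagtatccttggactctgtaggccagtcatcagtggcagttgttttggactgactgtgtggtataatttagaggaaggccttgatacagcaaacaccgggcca
Nr5a2 intron site B: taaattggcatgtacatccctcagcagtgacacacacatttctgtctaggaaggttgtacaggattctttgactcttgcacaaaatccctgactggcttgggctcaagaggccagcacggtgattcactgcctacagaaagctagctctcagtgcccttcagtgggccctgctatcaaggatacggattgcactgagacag

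Upstream of the gene, at -12.7 kb, a weaker site had 20 tags in native Nr5a2 and 13 in Nr5a2BiD. Its summits were 57 bp apart, and a CCAAGGTCA stood 79 bp from the native and 22 bp from the Nr5a2BiD summit, as the 201 bases around the native summit show (chr1:136973081-136973281, minus strand).
Nr5a2 proximal upstream site: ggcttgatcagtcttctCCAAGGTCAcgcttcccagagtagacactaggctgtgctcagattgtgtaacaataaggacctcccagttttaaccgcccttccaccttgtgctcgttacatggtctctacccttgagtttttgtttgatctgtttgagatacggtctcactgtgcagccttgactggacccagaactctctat

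Near the alternative start sites, peaks of both Nr5a2 libraries lay next to coding exons. The highest-scoring peak of native Nr5a2 at the locus outside coding exons (score 621, where a score is 10 times minus log10 of the p-value that MACS gave) covered chr1:136951683-136953566, with a summit of 57 tags only 82 bp from a coding exon. In Nr5a2BiD the overlapping peak had a summit of 16 tags, 70 bp from the same exon, and a score of 72.6. A second peak, of 31 tags in native Nr5a2 and 34 in Nr5a2BiD, had its summits 716 and 728 bp from a coding exon. Both sites lay within 2 kb of an annotated start, so Nr5a2 has a promoter call in its own libraries with coding-exon summits left out. Summits on coding exons stood nearer to an annotated start, at 35 bp in native Nr5a2 and at 198 and 363 bp in Nr5a2BiD. Neither of the 300-base promoter windows of Nr5a2 in RefSeq (250 bases before to 50 after a start) was touched by a peak of any library. Oct4BiD had a peak of 41 tags at chr1:136950100-136951222, 949 bp from an annotated start, which native Oct4 lacked. The peaks 82 and 70 bp from an exon also cover that exon, whose sequence the vectors carry, and their source was not tested.

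The other factors met at different places. A site at about 93.9 kb into the gene had a summit in 5 libraries, with 18 tags in native Sox2, 9 in Sox2BiD, 12 in native Nanog, 20 in NanogBiD and 18 in Oct4BiD, and none in the Nr5a2 libraries or native Oct4. A site at 44.8 to 44.9 kb had 30 tags in native Sox2, 32 in Sox2BiD and 11 in NanogBiD. In all, the locus held 17 regions, 10 of them with a peak in an Nr5a2 library, 7 with one in both and 6 with one in both and nowhere else. No region there had a peak in all 8 libraries.

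The coding exons of Nr5a2 were touched by peaks in its own libraries alone. The 9 coding segments add up to 1680 bp, or 0.771% of the window. Peaks covered 65.3% of these bases in native Nr5a2 and 73.5% in Nr5a2BiD, and 0% in each of the other 6 libraries. The highest summits of the locus were on the segment at chr1:136940409-136941049, with 75 tags (score 1199) in native Nr5a2 and 83 tags (score 1313) in Nr5a2BiD. On the segment at chr1:136845466-136845710, the last in gene order, the peaks of both libraries had 57 and 66 tags. They ended 73 bp beyond its low and 75 bp beyond its high end. The annotated gene runs on past the low end, to chr1:136842571. The segment at chr1:136882264-136882411 had 32 and 38 tags, and that at chr1:136948722-136948859 had a summit of 20 tags in Nr5a2BiD and no peak in native Nr5a2. Among the other 7 members, whose coding sequence the vectors do not hold, coding exons carried 1 summit in native Nr5a2, at Rarg, and 1 in Sox2BiD, at Nr6a1. DNA of the vector and binding at the exons cannot be told apart in these lists.

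Nr5a1 (ENSMUSG00000026751.14, chr2:38692656-38714542) was the other member where both Nr5a2 libraries stood above the rest. Native Nr5a2 had 17 summits and Nr5a2BiD 15, against 5 in native Oct4, 11 in Oct4BiD, 8 in native Sox2, 18 in Sox2BiD and 9 in each Nanog library. Per 10000 peaks this was 1.57 and 1.97 in the Nr5a2 libraries and 0.912 to 1.49 elsewhere, a narrow gap. Only these 2 members of 8 showed the separation that 31.7% of coding genes show. Nr5a1 is the one member with no promoter peak in any library, as were 24.4% of coding genes. Its regions in both Nr5a2 libraries alone numbered 5, the tallest at chr2:38717046-38719742, centred 3.85 kb upstream of the first start site, with 58 tags in native Nr5a2 and 50 in Nr5a2BiD. The highest-scoring native Nr5a2 peak of the window (score 487, 47 tags) was distant, at 61.5 kb beyond the first start site in the direction of the gene, past the end of Nr5a1.

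Nr6a1 (ENSMUSG00000063972.13, chr2:38723370-38927688) is the longest member, with a window of 304 kb that includes the start sites of 4 other coding genes. It had 25 summits in native Nr5a2, 15 in Nr5a2BiD, 13 in native Oct4, 16 in Oct4BiD, 7 in native Sox2, 26 in Sox2BiD and 17 in each Nanog library. Per 10000 peaks the Nr5a2 libraries (1.97 and 2.31) fell inside the range of the others (1.20 to 2.37). Its tallest region was one without Nr5a2. At chr2:38822485-38827466, inside the gene, native Sox2 had 89 tags and Sox2BiD 88, and the Oct4 and Nanog libraries 21 to 41. A site at chr2:38770678-38772238, shared with the Nr5a1 window, had 46 tags in native Nanog and 53 in NanogBiD, against 11 to 14 in the 4 other libraries with a peak. The highest native Nr5a2 score, 331, belonged to a site 24.3 kb upstream of Nr6a1, in an intron of another annotated gene. It had 43 tags in native Nr5a2 and 34 in Nr5a2BiD, and no other library had a peak there.

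Esrra (ENSMUSG00000024955.14, chr19:6910977-6921813) had a promoter peak in all 8 libraries, the only member to do so, where 17.2% of coding genes did. Its promoter summits had 68 tags in native Nr5a2, 78 in Nr5a2BiD, 101 in native Oct4, 120 in Oct4BiD, 34 in native Sox2, 44 in Sox2BiD, 34 in native Nanog and 43 in NanogBiD. They lay 128 to 296 bp upstream of the first start site. In tags, the Oct4 libraries had the highest and the native Sox2 and native Nanog libraries the lowest values, on a scale that depth also moves. By peak score Oct4BiD was also highest (759), but native Oct4 (472) stood below native Nr5a2 (700) and Nr5a2BiD (551). The RefSeq promoter window (GRCm38.p6, chr19:6921759-6922058, minus strand) is shown because a peak covered it in every library, with capitals on the 113 bases that hold 5 of the 8 summits. It contains neither the NR5A consensus nor its 7-base core AAGGTCA or AAGGCCA. The joined region of the promoter peaks, chr19:6919406-6923376, is 3971 bp long and held 2 matches to the consensus. Of 32851 RefSeq promoter windows, 2.22% hold the consensus and 10.6% the core, on either strand.
Esrra promoter: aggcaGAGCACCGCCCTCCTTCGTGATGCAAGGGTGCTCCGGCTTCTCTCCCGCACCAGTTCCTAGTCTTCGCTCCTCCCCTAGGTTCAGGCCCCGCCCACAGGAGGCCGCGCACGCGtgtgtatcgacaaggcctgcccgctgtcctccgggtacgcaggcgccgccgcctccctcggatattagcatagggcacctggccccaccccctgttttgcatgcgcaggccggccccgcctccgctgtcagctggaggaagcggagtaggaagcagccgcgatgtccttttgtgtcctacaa

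The Esrra window starts 16 other coding genes, and 14 of its 37 regions had peaks of more than 1 factor. It had 20 summits in native Nr5a2, 12 in Nr5a2BiD, 9 in native Oct4, 16 in Oct4BiD, 4 in native Sox2, 17 in Sox2BiD, 9 in native Nanog and 11 in NanogBiD. A second region, at chr19:6978134-6982217, also had a peak in all 8 libraries, with 22 to 63 tags. Regions of both Nr5a2 libraries alone numbered 3. Native Nr5a2 and Nr5a2BiD had 70 and 54 tags at chr19:6842010-6843245, 68 and 60 tags at chr19:6870989-6872761, and 55 and 20 tags at chr19:7001456-7003755, the last with the highest native Nr5a2 score of the locus (720). The nearest full NR5A consensus in the second of these was 438 bp from the native summit, but a core stood 19 bp from it. Its 201 bases (chr19:6871722-6871922, plus strand) are printed with both cores in capitals.
Esrra distal site: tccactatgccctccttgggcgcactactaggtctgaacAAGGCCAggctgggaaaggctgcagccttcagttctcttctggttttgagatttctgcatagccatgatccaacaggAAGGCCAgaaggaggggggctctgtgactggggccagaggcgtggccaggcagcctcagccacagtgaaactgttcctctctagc

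Rara (ENSMUSG00000037992.16, chr11:98927818-98974942) carried the tallest Nr5a2 summit of the 8 loci outside coding exons of Nr5a2. The peak at chr11:98974016-98975933, across the 3′ end of the gene, had 87 tags and a score of 660 in native Nr5a2 and 61 tags and a score of 398 in Nr5a2BiD, and no other library had one. The region held 3 matches to the NR5A consensus, the nearest 75 bp from the native summit, shown here within 201 bases (chr11:98975218-98975418, minus strand).
Rara 3′ site: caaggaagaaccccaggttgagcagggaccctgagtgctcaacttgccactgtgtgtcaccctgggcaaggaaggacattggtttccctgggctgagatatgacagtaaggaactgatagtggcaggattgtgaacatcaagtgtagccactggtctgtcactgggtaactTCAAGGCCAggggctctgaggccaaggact

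The Rara window had 19 summits in native Nr5a2, 12 in Nr5a2BiD, 4 in native Oct4, 14 in Oct4BiD, 3 in native Sox2, 13 in Sox2BiD, 13 in native Nanog and 16 in NanogBiD. Per 10000 peaks NanogBiD was highest (2.11) and native Sox2 lowest (0.516). A promoter peak was found in 6 libraries, with native Nr5a2 and native Sox2 as the exceptions.

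Rarg (ENSMUSG00000001288.15, chr15:102234938-102257517) had the most summits of any member in native Nr5a2, 26, and 14 in Nr5a2BiD. Native Oct4 had 5, Oct4BiD 17, native Sox2 3, Sox2BiD 18, native Nanog 11 and NanogBiD 14. The window was dense in most libraries. Its density exceeded that of 95.2% of coding genes in native Nr5a2, 92.7% in Oct4BiD, 86.8% in NanogBiD and 84.3% in Sox2BiD. The shares were 79.4% in native Nanog, 75.2% in Nr5a2BiD, 45.2% in native Oct4 and 32.6% in native Sox2. A region inside the gene, chr15:102245465-102251313, had a peak in 7 libraries, all but native Sox2, with the highest summit in Oct4BiD (81 tags) and 14 to 65 tags in the others. One region, chr15:102202746-102206422, had a peak in all 8, with 15 to 59 tags and the highest in Sox2BiD. The window starts 9 other coding genes.

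The COUP-TF genes differed from each other. Nr2f2 had 79 summits over the 8 libraries and Nr2f1 32, the fewest of any member. Nr2f1 (ENSMUSG00000069171.14, chr13:78188973-78199757) had 7 summits in native Nr5a2, 4 in Nr5a2BiD, 1 in native Oct4, 7 in Oct4BiD, 2 in native Sox2, 5 in Sox2BiD, 4 in native Nanog and 2 in NanogBiD, and none of them inside the gene. Its promoter calls in native Nr5a2 and Oct4BiD rested on summits of 20 and 19 tags that were 1940 and 1993 bp from the start, just inside the limit of 2 kb, while Nr5a2BiD had one of 15 tags at 2008 bp, just outside. Nr2f2 (ENSMUSG00000030551.14, chr7:70351944-70366735) had 10, 9, 6, 15, 4, 13, 9 and 13 summits in native Nr5a2, Nr5a2BiD, native Oct4, Oct4BiD, native Sox2, Sox2BiD, native Nanog and NanogBiD. Its most shared region, chr7:70266478-70268122, is 99.4 kb from the first start site and had a peak in all 8 libraries, of 69 and 62 tags in the Nanog libraries, 56 and 63 in the Nr5a2 libraries and 14 to 27 in the others. Neither gene had a region of both Nr5a2 libraries alone.

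**Figure D2:**
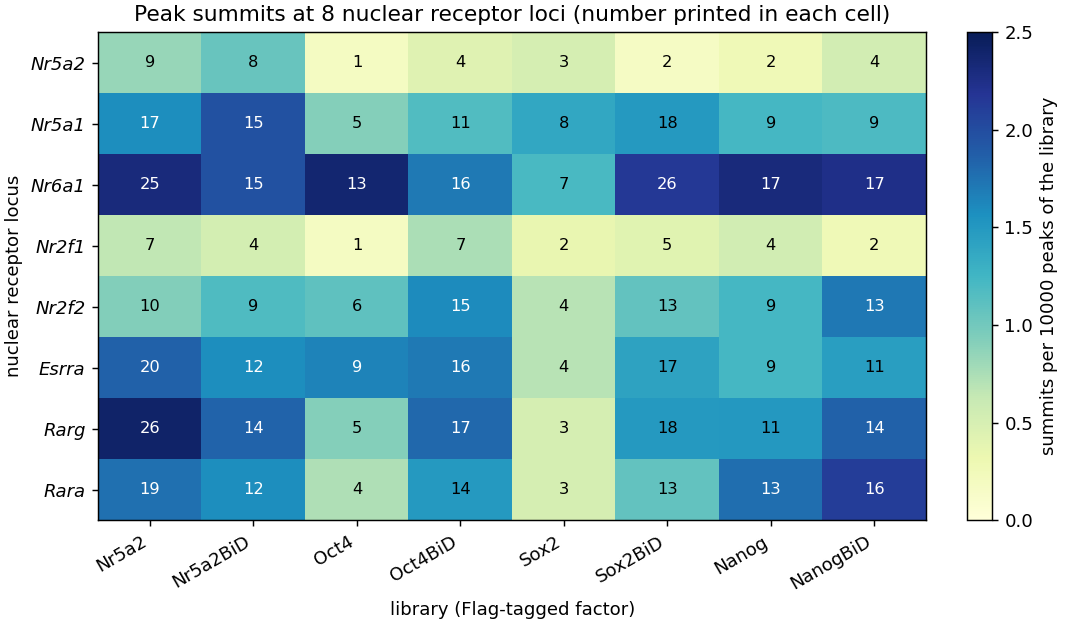
Number of peak summits at each of the 8 loci (rows) in each library (columns), with colour giving summits per 10000 peaks of the library and coding exons of Nr5a2 left out. Native Sox2 has the lowest number in 5 of the rows, and the Nr5a2 row holds 1 to 4 summits outside its own libraries.

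Whether the factor made a difference to the number of peaks at these loci as a whole was asked next. Native Nr5a2 had 128 summits (11.9 per 10000 peaks), Nr5a2BiD 85 (11.2), native Oct4 42 (7.67), Oct4BiD 95 (10.1), native Sox2 32 (5.50), Sox2BiD 102 (8.46), native Nanog 72 (9.80) and NanogBiD 82 (10.8). Both Nr5a2 libraries were above the other 6, with a mean of 11.5 against 8.73 ± 1.95 per 10000 peaks (SD, n = 6 libraries). The difference of 2.77 did not pass an exact permutation test over the 28 choices of 2 libraries (two-sided, p = 0.107, Benjamini-Hochberg adjusted p = 0.214 over 2 tests, smallest possible p = 0.0357). Choosing both forms of 1 factor of 4 together gave an exact permutation p of 0.5. The first of these tests treats both forms of a factor as samples of it. The order of the libraries was less stable than the mean. NanogBiD was above an Nr5a2 library in the 50 kb window (6.60 against 6.56 in Nr5a2BiD), in gene bodies (2.90 against 2.59 in native Nr5a2), at scores of at least 100 (10.4 against 9.47 in Nr5a2BiD) and without the Nr5a2 locus (10.3 against 10.1 in Nr5a2BiD). Counted in gene bodies alone the difference was 0.471, and in the top 20000 peaks of each list it was 5. For coding genes at large the 2 Nr5a2 libraries were also the highest, while the order of the other 6 differed in part. The median per gene window over all coding genes was 1.39 in native Nr5a2 and 1.31 in Nr5a2BiD per 10000 peaks, against 0.688 to 1.06 in the other 6. Higher counts in the Nr5a2 libraries are thus not particular to these loci.

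Whether BiD changed this number was the second question. On the log2 scale, the BiD to native ratio of summits per 10000 peaks was -0.087 for Nr5a2, 0.40 for Oct4, 0.62 for Sox2 and 0.14 for Nanog. It averaged 0.27 ± 0.31 (SD, n = 4 factors), was positive for 3 factors and negative for Nr5a2, and did not pass an exact sign-flip permutation test (two-sided, p = 0.25, adjusted p = 0.25), which with 4 factors cannot pass 0.05. Without Sox2 the mean was 0.15. By raw count, all 8 members had fewer summits in Nr5a2BiD than in native Nr5a2, as did 81.3% of coding genes, and 0 had more, against 4.19%. With Oct4, 8 of 8 had more in the BiD form (82.2% of coding genes) and 0 fewer (4.60%). With Sox2, 7 had more (88.4%) and Nr5a2 alone had fewer (1.68%), going from 3 summits to 2. With Nanog, 5 had more (53.2%) and Nr2f1 alone had fewer (21.2%). The lists of a pair differ in length, and scaling changed the split. Per 10000 peaks, Nr5a2, Nr5a1 and Nr2f2 had more in Nr5a2BiD than in native Nr5a2 (41.2% of coding genes) and the other 5 members fewer (50.3%), a split chosen after the values were seen. For Oct4 7 members had more in the BiD form (52.1%) and Nr6a1 fewer (39.4%), and for Sox2 7 had more (62.5%) and Nr5a2 fewer (30.3%). For Nanog 5 had more (53.1%) and Nr2f1, Nr5a1 and Nr6a1 fewer (36.5%).

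**Figure D3:**
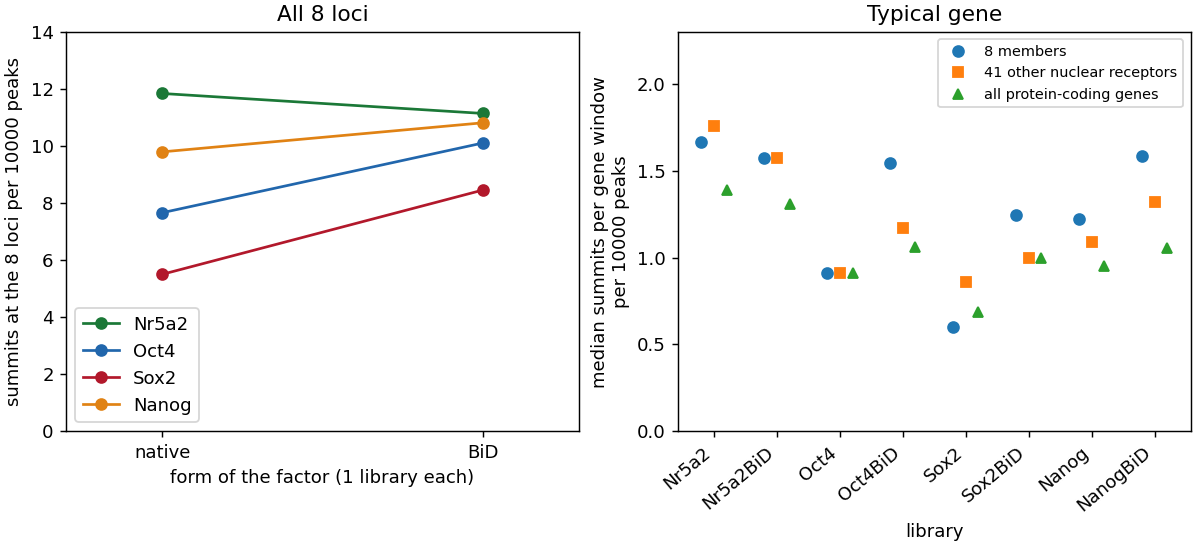
Left, summits at the 8 loci per 10000 peaks for the native and the BiD form of each factor, 1 library per point, where the line falls for Nr5a2 (11.9 to 11.2) and rises for Oct4, Sox2 and Nanog. Right, median summits per gene window per 10000 peaks over the 8 members, 41 other nuclear receptor genes and all coding genes in each library. The members' median runs from 0.602 in native Sox2 to 1.67 in native Nr5a2, and that of all coding genes from 0.688 to 1.39 in the same libraries.

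The sites themselves were shared unevenly between forms. In Nr5a2BiD 84.7% of the summits at the loci (72 of 85, exact binomial 95% interval 75.3 to 91.6%) were in a peak that overlapped a native Nr5a2 peak, and in native Nr5a2 54.7% (70 of 128, 45.7 to 63.5%) overlapped an Nr5a2BiD peak. Over all peaks of these libraries the shares were 86.0% and 60.7%. For the Oct4 pair the shares were 78.6% (native) and 34.7% (BiD), and for the Sox2 pair 84.4% and 26.5%. For the Nanog pair they were 73.6% and 50 of 82 summits. The whole lists had 73.1% in native Oct4 and 42.4% in its BiD form, 86.3% and 41.4% in the Sox2 libraries, and 72.7% and 70.1% in those of Nanog. For Sox2BiD the interval of 18.2 to 36.1% did not reach its share over all peaks. The intervals cover counting error in 1 library only, and the longer list of a pair had the lower share in each case.

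Promoter peaks were examined for the 8 genes against all coding genes. Native Nr5a2 had one at 6 of 8 members (63.5% of coding genes), Nr5a2BiD at 6 (53.9%), native Oct4 at 5 (39.0%), Oct4BiD at 7 (55.9%), native Sox2 at 1 (25.2%), Sox2BiD at 5 (53.4%), native Nanog at 5 (51.2%) and NanogBiD at 5 (54.5%). The single one of native Sox2 was at Esrra. Nr6a1, Nr2f2 and Rarg had one in the 7 libraries other than native Sox2, and Nr5a2 in 3, namely its own 2 libraries and Oct4BiD. With 8 genes these shares do not separate the members from coding genes at large.

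The NR5A consensus was found near summits of the Nr5a2 libraries. It lay within 50 bp of 11 of 128 summits (8.59%, interval 4.37 to 14.9%) in native Nr5a2 and of 5 of 85 (5.88%, 1.94 to 13.2%) in Nr5a2BiD. Windows centred 500 bp to either side held it in 1.17% and 2.35% of cases, and in 0.694% to 4.76% in the other 6 libraries. Elsewhere it was found at 0 of 42 summits of native Oct4, 0 of 95 of Oct4BiD, 0 of 32 of native Sox2, 2 of 102 of Sox2BiD, 1 of 72 of native Nanog and 0 of 82 of NanogBiD. A count of 0 allows up to 8.41%, 3.81%, 10.9% and 4.40% of summits (upper exact binomial limit) in native Oct4, Oct4BiD, native Sox2 and NanogBiD. Over all peaks the share was 11.0% in native Nr5a2 and 7.89% in Nr5a2BiD, and 0.442% to 0.663% in the other 6, so the loci followed the whole lists. By member, the 11 native summits were 3 at Rarg, 2 each at Nr6a1 and Nr2f2, 1 each at Nr5a2, Nr5a1, Nr2f1 and Rara, and 0 at Esrra. The 5 of Nr5a2BiD were 2 at Nr5a2, 2 at Esrra and 1 at Nr5a1.

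**Figure D4:**
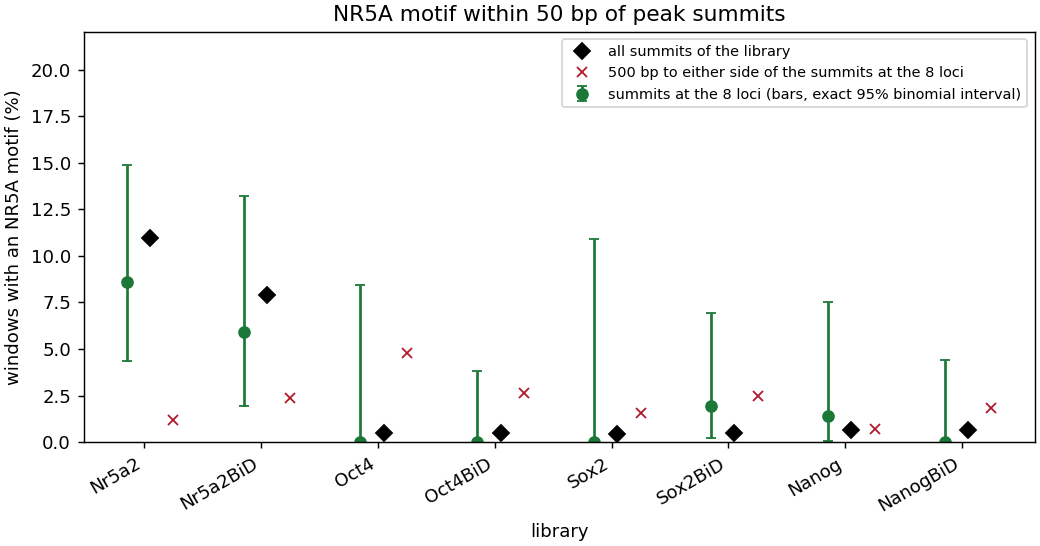
Share of summits with the NR5A consensus within 50 bp, in percent, for summits at the 8 loci (circles with exact binomial 95% intervals), all summits of the library (diamonds) and windows 500 bp to either side of the summits at the loci (crosses). The 2 Nr5a2 libraries have 8.59% and 5.88% at the loci, and the other 6 have 0 to 1.96%.

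Many Nr5a2 sites had no full match. Of the 26 regions with a peak in both Nr5a2 libraries alone, 11 held a full match anywhere in the region and 17 the core. These regions are 603 to 2697 bp long, and longer sequence holds more matches by length alone. Flank windows of 101 bases, 500 bp to either side of native Nr5a2 summits at the loci, held the core in 3.52% of cases. How many matches length alone would give in these regions was not tested. By locus the 26 regions were 6 at Nr5a2, 3 at Esrra, 5 at Rarg, 2 at Rara, and 10 at Nr5a1 and Nr6a1, of which 2 lie in both windows. The summits of the 2 forms were a median of 21 bp apart (0 to 718 bp), with 21 of 26 within 100 bp. The native summit was the taller in 19 regions and the Nr5a2BiD summit in 7, in unscaled tags. The native summit lay in an intron in 18 and between genes in 7, and within 2 kb of a start site of a coding gene in 8.

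**Figure D5:**
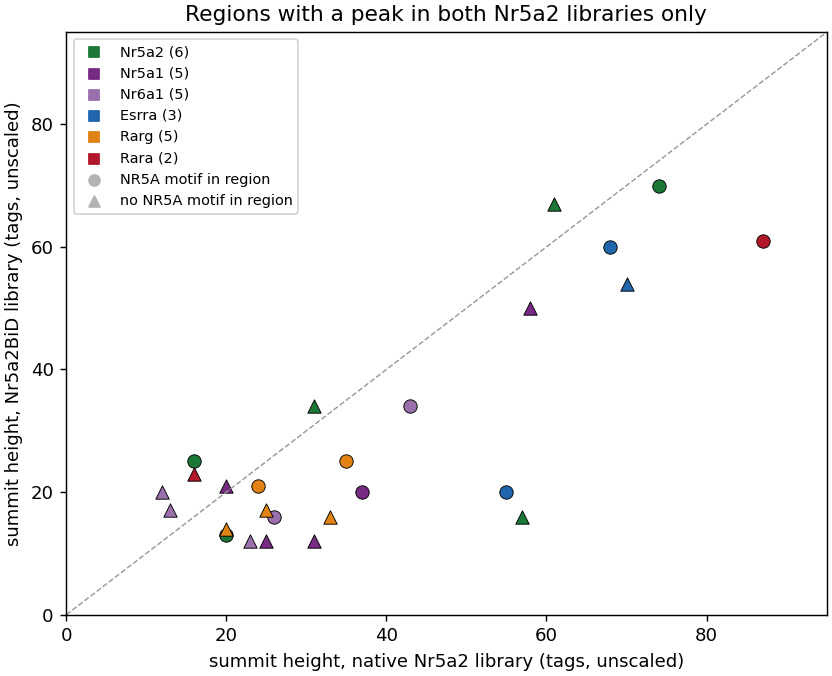
Summit height in native Nr5a2 against Nr5a2BiD, in unscaled tags, for the 26 regions with a peak in both libraries and in no other; colour gives the locus, with regions of both chromosome 2 windows drawn under Nr5a1, and circles mark regions with an NR5A consensus. The Rara 3′ site has the tallest native summit, 87 tags, and 7 regions lie above the dashed line of equal height.

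The other nuclear receptor genes gave a similar picture. Of 41 further receptors, 30 had a promoter peak in native Nr5a2, 28 in Nr5a2BiD, 19 in native Oct4, 26 in Oct4BiD, 12 in native Sox2, 21 in Sox2BiD, 24 in native Nanog and 26 in NanogBiD. Over all coding genes these shares were 63.5%, 53.9%, 39.0%, 55.9%, 25.2%, 53.4%, 51.2% and 54.5%, in the same order. Both Nr5a2 libraries stood above the other 6 per 10000 peaks at 13 of the 41, and at 31.7% of coding genes. Fewer summits were found in Nr5a2BiD than in native Nr5a2 at 36 of 41 (81.3% of coding genes). Oct4BiD and Sox2BiD had more than the native forms at 37 and 38 (82.2% and 88.4% of coding genes). The 3 of these receptors with the most summits in native Nr5a2 were Rora (69), a regulator of circadian and cerebellar genes, Esrrg (34), a relative of Esrra, and Thra (28), a thyroid hormone receptor. The windows of Rora and Esrrg span 835 kb and 706 kb, and that of Thra 200 kb. In Nr5a2BiD these genes had 50, 23 and 17 summits. Per 10000 peaks, Rora had 6.387 in native Nr5a2, 6.56 in Nr5a2BiD and 3.954 to 6.205 in the other libraries. Esrrg had 3.147 and 3.018 in the Nr5a2 libraries, below native Oct4 (3.833), Oct4BiD (4.469) and NanogBiD (3.431). Thra had 2.592 and 2.23 in the Nr5a2 libraries and was highest in native Oct4 (2.92).

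The genes whose summits per 10000 peaks followed those of Nr5a2 most closely over the 8 libraries were Zhx3 (Pearson r = 0.98), Atp6v0e (r = 0.97) and Tmem82 (r = 0.97), out of 18706 genes with at least 20 summits. The 8 points share the scaling by peak number and rest on 1 library each. Zhx3 had 22 and 18 summits in native Nr5a2 and Nr5a2BiD and 6 to 13 in the others. Among the members, Nr5a1 had r = 0.78 and Rarg 0.50, while Nr6a1 had -0.16 and Nr2f2 -0.078.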

How the data were processed

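Flag CUT&Tag peak lists of 8 MEF libraries at day 3 were analysed, 1 per factor and form. The study's methods state that trimming was done by Trim Galore 0.6.4, and that the authors aligned reads to mm10 with Bowtie2 2.4.5, and filtered repetitive, low-quality and mitochondrial reads with SAMtools 1.16.1. They called peaks with MACS 1.4.2 (1 tag per position, shift size of 25 bp). The methods speak of merged replicates, while the study's reporting summary says that the CUT&Tag was performed once. As deposited, each peak has a score, 10 times the negative log10 of its MACS p-value (lowest value 50), and each summit a signal, the tags stacked there, which the authors did not scale. Read totals were not used here, so depth is not corrected for.

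Summits were assigned to GENCODE M21 genes and scaled to 10000 peaks of the library. Sequences came from RefSeq's GRCm38.p6 genome and promoter table, which matched 7 of 8 members. Intervals are exact binomial at 95%, and both tests are exact permutation tests over libraries or factors. Python 3.11.15, NumPy 2.4.6, pandas 2.3.3, SciPy 1.17.1 and Matplotlib 3.10.9 were used, and the counting code was tested on simulated data. The members, lists and tests were chosen with earlier results of these data known. Named by a written rule were the members, the highest-scoring peak of each Nr5a2 library at a locus, shared regions with the highest score, the 3 receptors with most summits in native Nr5a2 and the 3 genes most like Nr5a2. Other sites and all printed sequences were chosen after their values were seen. Alternatives covered the window, score, number of peaks, exon summits, scaling and each factor left out.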

Additional observations from a re-analysis of the deposited data

Results flagged for a closer look

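The ratio of BiD to native summits at the 8 loci per 10000 peaks pointed in different directions for different factors. On the log2 scale it was -0.087 for Nr5a2, 0.40 for Oct4, 0.62 for Sox2 and 0.14 for Nanog. The median over all coding genes, per 10000 peaks, moved the same way for each factor. From native to BiD it went from 1.39 to 1.31 for Nr5a2 and from 0.912 to 1.06 for Oct4. For Sox2 it went from 0.688 to 0.995, and for Nanog from 0.953 to 1.06. The split is thus not particular to these loci. With 1 library per form, the difference between factors was not tested.

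Summits on coding exons of Nr5a2 were left out of the counts at the loci, other than the alternative that counts them. There were 3 in native Nr5a2 and 4 in Nr5a2BiD, and 0 in the other 6 libraries. They lie on sequence that the delivered vectors carry, and their source was not tested.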

How the results depend on the processing

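The excess of the Nr5a2 libraries over the other 6 (2.77 summits per 10000 peaks) kept its direction and missed the threshold in all 12 alternatives, though with 1 factor left out, or with factors as the unit, no p under 0.05 was possible. It was 0.471 in gene bodies alone, 35.7 summits without scaling, 1.56 in the window of 50 kb joined with the gene body, 2.18 without the Nr5a2 locus, 2.66 without summits within 200 bp of its coding exons (added after seeing the data) and 5 in the top 20000 peaks (p = 0.0714, exact permutation test), and 1.90 to 3.57 with Oct4, Sox2 or Nanog left out. The mean log2 ratio of BiD to native (0.27) stayed positive in all 12 alternatives, from 0.12 in the top 20000 peaks to 0.61 without scaling (where no test of 4 factors can pass 0.05), and was 0.15 to 0.39 with 1 factor left out. Without Sox2 it was 0.15, the lowest of these. Promoter peaks numbered 40 of 64 gene and library pairs, 24 within 500 bp and 17 in the top 20000 peaks. The mean shared share of 62.3% became 47.8% for summits within 100 bp and 77.4% at a score of at least 100. The share of summits with an NR5A consensus in native Nr5a2 was 1.56% within 25 bp, 15.6% within 100 bp and 23.4% with the core (added after seeing the data), and in Nr5a2BiD 1.18% within 25 bp, 8.24% within 100 bp and 18.8% with the core. In the other 6 libraries these shares stayed inside the interval of the value given.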

Other observations

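Motifs of the other factors near summits at the 8 loci, not described above, were rare. ATGCAAAT, the octamer bound by Oct4, lay within 50 bp of 6 of 95 summits in Oct4BiD (6.32%) and of 0 of 42 in native Oct4, against 9.72% and 4.17% of all their peaks. CCATTGTT, a SOX sequence, was found at 2 of 32 summits in native Sox2 and 5 of 102 in Sox2BiD, against 1.90% and 3.29% of all their peaks. GCCATTA, a NANOG sequence, was found at 0 of 72 summits in native Nanog and 1 of 82 in NanogBiD, against 1.70% and 2.55% of all their peaks. The AP-1 sequences TGACTCA and TGAGTCA were at 9.80% of the summits in Sox2BiD, 7.06% in Nr5a2BiD, 6.94% in native Nanog, 6.25% in native Sox2, 6.10% in NanogBiD, 3.91% in native Nr5a2, 3.16% in Oct4BiD and 0% (0 of 42) in native Oct4. Over all peaks of the same libraries the shares were 9.01%, 7.76%, 10.2%, 8.66%, 8.65%, 6.07%, 3.61% and 4.56%, in this order.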
